A study of Mus musculus and Homo sapiens with 83 samples.

Results

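Pou5f1, Nanog, Sall4, Lin28a, Zfp281 and Utf1 are 6 genes of the pluripotency network of mouse embryonic stem cells (mESCs). They were taken as a named list, each matched by symbol to its Ensembl gene ID without the version suffix, and all 6 were found among the 55401 mouse gene IDs of the count files. Their reads were followed in 24 single cells of E14, a 129/Ola mESC line. The RNA came from AMAR-seq, a chip method that draws the cytoplasm of a lysed cell away from its intact nucleus and makes full-length cDNA from it by a Smart-seq2 procedure. The 6 day 0 cells came from dishes with mouse embryonic fibroblast (MEF) feeder cells and leukemia inhibitory factor (LIF), a cytokine that supports self-renewal of these cells. The 7 day 3, 6 day 6 and 5 day 9 cells came from cells replated on gelatin without feeders and without LIF, so that LIF, feeders, replating and time differ together between day 0 and the later days and cannot be told apart. No directing signal was named for this differentiation.

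POU5F1 (OCT4) is a POU-domain transcription factor that binds DNA with SOX2 at composite elements and is required for pluripotency. NANOG, a homeodomain factor, and SALL4, a zinc finger factor of the spalt family, occupy many of the same regulatory regions, and ZFP281, a zinc finger protein that binds G-rich DNA, has been placed in the same network as a partner that restrains Nanog through the NuRD deacetylase complex. UTF1 is a chromatin-bound protein and a known OCT4 and SOX2 target, and LIN28A is a cytoplasmic RNA-binding protein that blocks maturation of the let-7 microRNAs.

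The promoters of 5 of the 6 genes were found in a RefSeq table on GRCm38.p6, the build called mm10 in the submitters' notes. They are shown because the network is defined by factors that bind the genes of their own partners, and the Nanog promoter holds the clearest case. Each sequence runs from 250 bases before to 50 bases after the annotated start, 5′ to 3′ on the gene's own strand, and the capitals mark the motif matches named here, from a search on both strands. In Nanog, at chr6:122707239-122707538 on the plus strand, they mark the composite OCT4 and SOX2 motif. In Lin28a, at chr4:134018767-134019066 on the minus strand, they mark 2 overlapping copies of GGGGAGGGG, a G-rich run of the kind ZFP281 binds. In Pou5f1, at chr17:35505782-35506081 on the plus strand, they mark the GC box GGGCGG and the nuclear receptor motif AGGTCA. In Utf1, at chr7:139943606-139943905 on the plus strand, and in Zfp281, at chr1:136624651-136624950 on the plus strand, they mark GC boxes, in Zfp281 on the opposite strand. A further AGGTCA on the opposite strand, 248 to 243 bases before the Nanog start, and a further GC box on the opposite strand, 32 to 37 bases after the Lin28a start, are left in lower case.
Nanog: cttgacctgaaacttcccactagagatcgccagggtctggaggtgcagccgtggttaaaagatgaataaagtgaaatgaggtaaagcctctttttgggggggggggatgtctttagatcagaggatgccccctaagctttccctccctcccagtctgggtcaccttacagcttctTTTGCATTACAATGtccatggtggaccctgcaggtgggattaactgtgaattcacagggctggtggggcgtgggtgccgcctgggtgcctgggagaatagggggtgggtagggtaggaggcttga
Lin28a: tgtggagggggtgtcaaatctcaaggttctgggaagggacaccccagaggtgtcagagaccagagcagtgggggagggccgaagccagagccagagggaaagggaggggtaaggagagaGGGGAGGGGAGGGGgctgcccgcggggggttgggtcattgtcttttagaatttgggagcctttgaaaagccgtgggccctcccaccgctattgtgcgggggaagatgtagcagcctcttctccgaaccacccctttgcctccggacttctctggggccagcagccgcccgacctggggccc
Pou5f1: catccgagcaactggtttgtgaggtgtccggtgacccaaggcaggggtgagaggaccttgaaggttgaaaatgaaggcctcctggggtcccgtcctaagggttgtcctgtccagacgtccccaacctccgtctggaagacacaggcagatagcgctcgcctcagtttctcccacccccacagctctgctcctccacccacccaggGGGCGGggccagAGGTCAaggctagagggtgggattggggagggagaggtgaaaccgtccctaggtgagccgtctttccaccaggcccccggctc
Utf1: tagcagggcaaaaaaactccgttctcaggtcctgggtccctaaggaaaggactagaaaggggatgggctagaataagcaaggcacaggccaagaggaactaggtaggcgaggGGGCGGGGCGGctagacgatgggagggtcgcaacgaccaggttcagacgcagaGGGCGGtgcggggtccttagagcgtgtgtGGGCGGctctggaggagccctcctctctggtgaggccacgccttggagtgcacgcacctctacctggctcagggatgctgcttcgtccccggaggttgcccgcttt
Zfp281: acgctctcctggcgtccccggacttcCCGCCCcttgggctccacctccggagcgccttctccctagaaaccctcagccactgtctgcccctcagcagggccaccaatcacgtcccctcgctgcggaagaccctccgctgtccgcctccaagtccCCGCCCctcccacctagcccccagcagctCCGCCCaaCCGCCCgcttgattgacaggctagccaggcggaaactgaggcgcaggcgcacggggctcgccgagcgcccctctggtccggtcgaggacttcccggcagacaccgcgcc

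The composite motif, searched as TTTGCAT, any base, ACAA, any base and G, lay 75 to 62 bases before the Nanog start. It was held by 3 of 32851 promoter records of the same length, or 0.00913%, and 2 of those 3 records belong to Nanog. The G-rich run was held by 6.37% of the promoter records, the GC box by 35.7% and AGGTCA by 16.3%. The GC content of the promoters was 62.7% for Pou5f1, 54.3% for Nanog, 63.3% for Lin28a, 70.7% for Zfp281 and 62.0% for Utf1, beside a median of 52.7% over all records. Pou5f1 and Nanog each have a record for another start, with 45.7% and 56.0%, of which that of Pou5f1, at chr17:35508557-35508856, held none of the motifs searched and that of Nanog held the same composite motif. A match describes letters in the window only. The full gene of Nanog spans chr6:122707489-122714633, Pou5f1 chr17:35506032-35510777, Utf1 chr7:139943856-139945112, Lin28a chr4:134003330-134019196, Zfp281 chr1:136624901-136630391 and Sall4 chr2:168748332-168767201, all protein-coding genes on mm10. Only Sall4 overlaps another annotated gene, Gm14261.

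The libraries held 3913595 to 16367029 reads on genes, so that 3 reads in 1 library stood for 0.183 to 0.767 counts per 1000000 gene reads (CPM). Mitochondrially encoded genes took 3.29% to 24.2% of the reads at day 0, under 10% in 2 of the 6 cells, and 2.00% to 18.6% at the later days. A ribosomal RNA gene, CT010467.1, took 13.0% to 75.2% of the reads of a library, which moves every CPM value within it. Over all 61 pairs of cells of 1 day, no pair agreed within sampling noise. The MEF marker list had reads from 15 of 15 genes at day 0, with cell sums of 1.72 to 555 CPM, and 10 to 12 of 15 genes at the later days, with 27.5 to 178 CPM. At day 0, Lum had 1 read and Col6a1 had 2, and the 555 CPM was that of cell 6. The median cell sums were 112 CPM at day 0 and 40.7, 101 and 109 CPM at days 3, 6 and 9. The part of feeder RNA in the day 0 values was not tested. Each library is 1 cell and the labels name no separate cultures, so a day is 1 sample, and no test across days was possible. Intervals are 95% and cover counting error only. Differences are given as a ratio of day-summed CPM, and as a relative log2 ratio, which adds 1 CPM to both days and subtracts the median over all genes that reached 20 reads in the 2 days together, in 2 or more libraries. That median was 0.09 for day 3 against day 0, 0.49 for day 6 and 0.71 for day 9. The comparisons against day 0 share the 6 day 0 cells. No transcript lengths were used, so levels are compared within a gene and not between genes.

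Pou5f1 had reads in all 24 cells, and its day-summed level was lowest at day 0 and highest at days 3 and 6. At day 0, with LIF and feeders, the cells had 56.4 CPM at the lowest, 108 CPM at the median and 274 CPM at the highest. At day 3 the lowest, median and highest cells had 254, 621 and 847 CPM, and at day 6 they had 189, 631 and 779 CPM. The 5 day 9 cells had 46.2, 117, 329, 266 and 432 CPM. Only the lowest day 3 and day 6 cells were below the highest day 0 cell, while day 9 spread over the whole day 0 range. The day sums were 137 CPM (133 to 140.0), 572 CPM (566 to 578), 576 CPM (571 to 582) and 271 CPM (266 to 277) at days 0, 3, 6 and 9. In this order of levels, day 9 was 1.99-fold above day 0, day 3 was 2.11-fold above day 9, and days 3 and 6 had a ratio of 1.01 (0.993 to 1.02). Cell ranges overlapped between each of these neighbours.

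Relative to the median gene, Pou5f1 was higher by 1.97 on the log2 scale at day 3 and 1.58 at day 6, side by side with 0.28 at day 9. Without any 1 cell the day 3 value stayed within 1.60 to 2.42 and the day 6 value within 1.23 to 2.02, while the day 9 value lay within -0.06 to 0.71 and so changed sign. With the day 0 cells of under 10% mitochondrially encoded reads only, cells 5 and 6, the values were 2.57, 2.20 and 0.93. These cells had reads from 11 and 14 of the 15 MEF markers, with sums of 107 and 555 CPM. The 555 CPM of cell 6 was the highest sum of the 24 cells, and the part of feeder RNA here was not tested. Day 9 against day 6 gave -1.28, and -0.98 without day 9 cell 2. Among the day 0 cells, cell 1, with 24.2% mitochondrially encoded reads, had the highest Pou5f1 level at 274 CPM, and cell 4, with 15.5%, had the lowest at 56.4 CPM.

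The day 3 cells were closer together in Pou5f1 once CT010467.1 was taken out of the totals. On that scale the 7 cells lay between 909.6 and 1345 CPM, with a median of 1294 CPM, a ratio of highest to lowest of 1.48 and a coefficient of variation of 0.143. Of 1285 genes with a mean of at least 100 CPM on that scale, 19, or 1.48%, had a coefficient at or below that of Pou5f1, and the median gene had 0.378. With CT010467.1 in the totals the coefficient was 0.401, and 26.8% of 552 such genes were at or below it. The other days did not show this: on the scale without CT010467.1 the coefficient was 0.586 at day 0, 0.527 at day 6 and 0.519 at day 9, with 27.2%, 51.4% and 49.96% of genes at or below it. This ranking among genes was made for Pou5f1 only. The day 3 coefficients of Utf1, Sall4, Nanog, Lin28a and Zfp281 on the same scale were 0.428, 0.497, 0.611, 0.795 and 0.920. The day 3 share of CT010467.1 ran from 37.0% to 75.2%, and the 2 scales differ by that share alone. On the scale without it, every day 3 cell was above every day 0 cell, whose highest was 459.9 CPM.

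Nanog had its highest day sum at day 6 and its lowest at day 3, and at day 0 most of its reads came from a single cell. The day 0 cells had 0, 118, 1.30, 11.03, 6.77 and 21.7 CPM. Cell 2 alone held 74.3% of the day's summed cell values, and cell 1 had no read. The day 3 cells had 2.65, 10.3 and 30.7 CPM at the lowest, median and highest, and the day 6 cells had 30.6, 52.9 and 98.3 CPM. The 5 day 9 cells had 24.5, 23.5, 48.8, 19.7 and 20.7 CPM. The day 6 cells began where the day 3 cells ended, with an overlap of 30.6 and 30.7 CPM, whereas the day 0 cells covered the whole range of the others.

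The Nanog day sums were 26.3 CPM (24.9 to 27.9), 14.3 CPM (13.4 to 15.3), 59.5 CPM (57.7 to 61.3) and 28.9 CPM (27.2 to 30.7) at days 0, 3, 6 and 9. Day 6 against day 3 had a ratio of 4.15 (3.85 to 4.47) and a relative log2 ratio of 1.54, within 1.38 to 1.80 without any 1 cell. Day 9 against day 6 gave -1.21, within -1.50 to -1.01. Against day 0 the direction at days 3 and 9 turned with cell 2, and the size at day 6 moved with it. The relative log2 ratios were -0.93, 0.66 and -0.58 at days 3, 6 and 9 with it, and 0.69, 2.26 and 1.03 without it. The coefficient of variation over cells was 1.72 at day 0 and 0.713, 0.444 and 0.440 at days 3, 6 and 9. The processed pseudogenes Nanog-ps1 and Nanog-ps2 had 0 reads in all 24 cells.

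**Figure D1:**
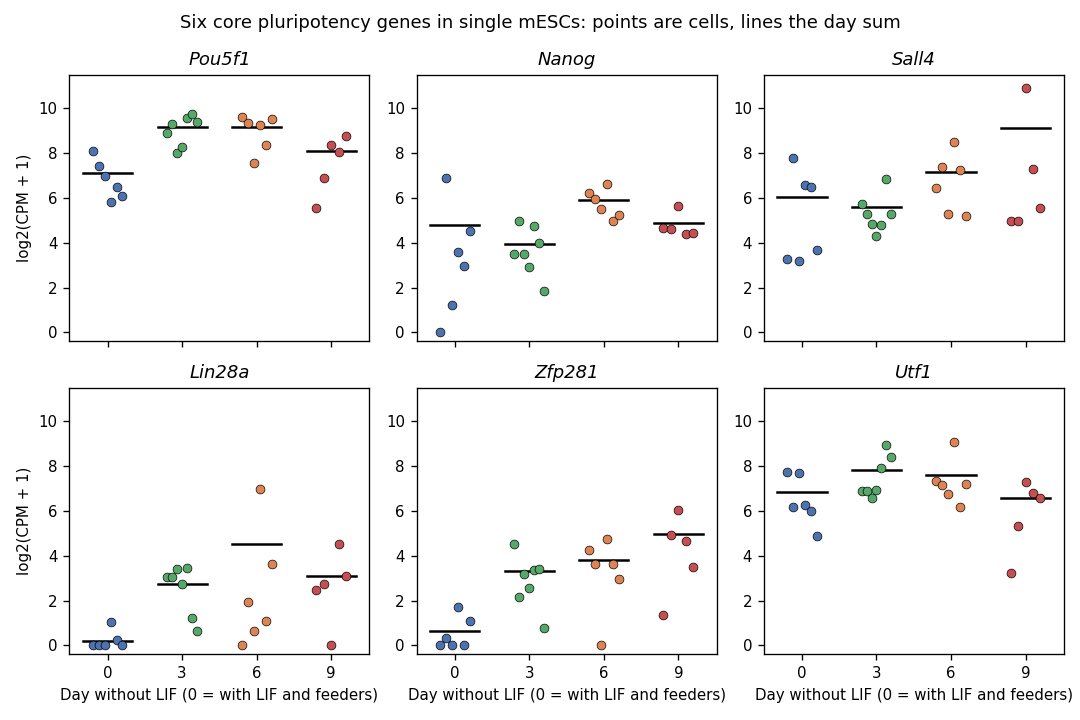
Level of each core gene in every cell by day, as log2(CPM + 1), with points for the 24 cells and a line for the log2 of the day-summed CPM plus 1. Pou5f1 is lowest at day 0, Nanog is tightest at days 6 and 9, single cells stand far above the others for Sall4 at day 9 and Lin28a at day 6, and Lin28a and Zfp281 lie near 0 in the day 0 cells.

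Sall4 had reads in every cell, and its high day 9 sum came from 1 cell. The day 0 cells had 8.06, 50.1 and 216 CPM at the lowest, median and highest, and the day 3 cells had 18.6, 37.5 and 116 CPM. The day 6 cells had 35.5, 119 and 363 CPM. The 5 day 9 cells had 30.2, 30.7, 1909, 155 and 46.7 CPM. Day 9 cell 3 was above all other 23 cells and held 87.9% of the day's summed cell values, while the other day 9 cells lay within the range of day 0.

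The Sall4 day sums were 65.4 CPM (63.0 to 67.8), 48.1 CPM (46.3 to 49.8), 139.9 CPM (137 to 143) and 555 CPM (547 to 562.3) at days 0, 3, 6 and 9. Day 9 had a relative log2 ratio of 2.36 to day 0 and 1.79 to day 6, which were -0.63 and -1.14 without day 9 cell 3. By the median over cells they were -0.75 and -1.41. Day 6 was 2.91-fold (2.79 to 3.04) above day 3, a relative log2 ratio of 1.08 that was 0.66 without day 6 cell 4. It passed 1 in 6 of 12 alternatives and was 0.91 with TMM, 0.92 with DESeq2 size factors, 0.92 without CT010467.1 in the totals, 0.93 with a pseudocount of 0.1 CPM, 0.86 with a minimum of 200 reads and 0.74 with centring on genes of at least 20 CPM. Day 0 cell 2, the cell that decided Nanog, also had the highest Sall4 of its day, and without it the ratios to day 0 were 0.37, 1.48 and 3.25 at days 3, 6 and 9. The overlapping gene Gm14261 had 315 reads, or 32.6 CPM, in day 9 cell 3 and 0 reads in the other 23 cells. The strand setting of the counting is not given in the sources used here, so reads of the 2 overlapping genes cannot be told apart, and the part of this in the Sall4 value was not tested.

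Zfp281 was near absent from the day 0 libraries and had reads in nearly all later cells. At day 0 it had 25 reads in all, in 3 of 6 cells, of which the highest had 2.24 CPM. It had reads in 7 of 7 cells at day 3, with 0.691, 8.19 and 22.2 CPM at the lowest, median and highest, and in 5 of 6 cells at day 6, with 0, 11.4 and 26.1 CPM. The 5 day 9 cells had 1.53, 29.0, 65.3, 23.9 and 10.2 CPM. The day 0 libraries also held fewer genes at equal depth: 3455 to 9820 genes in 1000000 gene reads, with 3455 and 4334 in cells 1 and 2, beside 8436 to 10999 at day 3. Cells 5 and 6, with 9709 and 9820 genes, had 0 and 10 reads of Zfp281, and the part of this in the day 0 values of Zfp281 and Lin28a was not tested. Zfp281 was the only gene of the 6 whose day sums stood in the order of the days.

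The Zfp281 day sums were 0.549 CPM (0.355 to 0.811), 8.93 CPM (8.19 to 9.72), 13.1 CPM (12.3 to 14.0) and 30.1 CPM (28.3 to 31.9) at days 0, 3, 6 and 9. The ratios to day 0 were 16.3 (10.9 to 25.3), 23.9 (16.1 to 37.1) and 54.7 (36.9 to 84.9), and the relative log2 ratios were 2.59, 2.70 and 3.62. Without any 1 cell they lay within 2.13 to 2.77, 2.50 to 2.87 and 2.89 to 3.87. With a pseudocount of 10 CPM, above the level of most cells, they were 0.82, 1.00 and 1.74. At an equal depth of 1000000 gene reads per cell, 1.86 of 6 day 0 cells and 6.49 of 7 day 3 cells would be expected to hold a Zfp281 read. Day 9 against day 6 gave 0.94, or 0.29 without day 9 cell 3. Its zinc finger relative Zfp148 had 24.8, 9.71, 24.0 and 68.0 CPM over the 4 days, and was read in 5 of 6 day 0 cells. Day 0 cell 4 held 69.0% of the summed Zfp148 cell values of its day, and the day 0 median was 2.39 CPM.

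Utf1 had reads in all 24 cells, with its highest day sum at day 3 and its lowest at day 9. The day 0 cells had 28.2, 73.4 and 210.2 CPM at the lowest, median and highest. The day 3 cells had 94.8, 122 and 489.5 CPM, and the day 6 cells had 72.03, 144 and 541 CPM. The 5 day 9 cells had 8.43, 39.0, 158, 110.2 and 94.3 CPM. The day 0 and day 9 cells reached lower than those of days 3 and 6, and the ranges of all days overlapped.

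The Utf1 day sums were 114 CPM (111 to 117), 223 CPM (219.7 to 227), 195 CPM (191 to 198) and 94.1 CPM (90.9 to 97.3) at days 0, 3, 6 and 9. Day 3 had a ratio to day 0 of 1.96 (1.90 to 2.02) and a relative log2 ratio of 0.87, which passed 1 without day 0 cell 1 or 3 or day 3 cell 1 or 2, at 1.26, 1.11, 1.08 and 1.02. Day 9 gave -0.98 against day 0, and lay between -1.35 and -0.62 without any 1 cell. With day 0 cells 5 and 6 only, the values at days 3, 6 and 9 were 2.04, 1.46 and 0.24, so the direction at day 9 turned with the choice of day 0 cells. Cell 6 had the lowest Utf1 of day 0, at 28.2 CPM, and also the highest MEF marker sum. Day 9 against day 6 gave -1.23, and -0.75 without day 6 cell 4 or -0.94 without day 9 cell 2.

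Lin28a had the fewest reads of the 6 genes at day 0, 7 reads in 2 of 6 cells. These were 6 reads in cell 4 and 1 read in cell 5, so that only cell 4, at 1.03 CPM, stood above the floor of 3 reads. The day 3 cells had 0.576, 7.16 and 9.97 CPM at the lowest, median and highest, with reads in 7 of 7. The day 6 cells had 0, 1.99 and 126 CPM, and cell 4 held 88.9% of the day's summed cell values. The 5 day 9 cells had 4.599, 5.64, 0, 22.1 and 7.63 CPM. Day 3 was thus the only day with a read in every cell, and day 9 cell 3, the highest in Sall4 and Zfp281, had none.

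The Lin28a day sums were 0.154 CPM (0.0618 to 0.317), 5.67 CPM (5.09 to 6.31), 22.1 CPM (21.0 to 23.3) and 7.59 CPM (6.72 to 8.54) at days 0, 3, 6 and 9. The ratios to day 0 were 36.9 (17.7 to 92.5), 144 (69.7 to 359) and 49.4 (23.6 to 124), and the relative log2 ratios were 2.44, 3.84 and 2.19. The day 6 value was 1.31 without day 6 cell 4. That cell also set the direction between later days, where day 6 against day 3 was 1.35 with it and -1.15 without it, and day 9 against day 6 was -1.62 with it and 0.87 without it. With a pseudocount of 10 CPM the day 3 and day 9 values were 0.61 and 0.60. At 1000000 gene reads per cell, 0.840 of 6 day 0 cells and 6.21 of 7 day 3 cells would be expected to hold a read. The related gene Lin28b, which also acts on let-7, had 2.39, 1.80, 5.42 and 6.25 CPM over the 4 days. It had reads in 4 of 6 day 0 cells, of which cell 5 had 1 read.

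**Figure D2:**
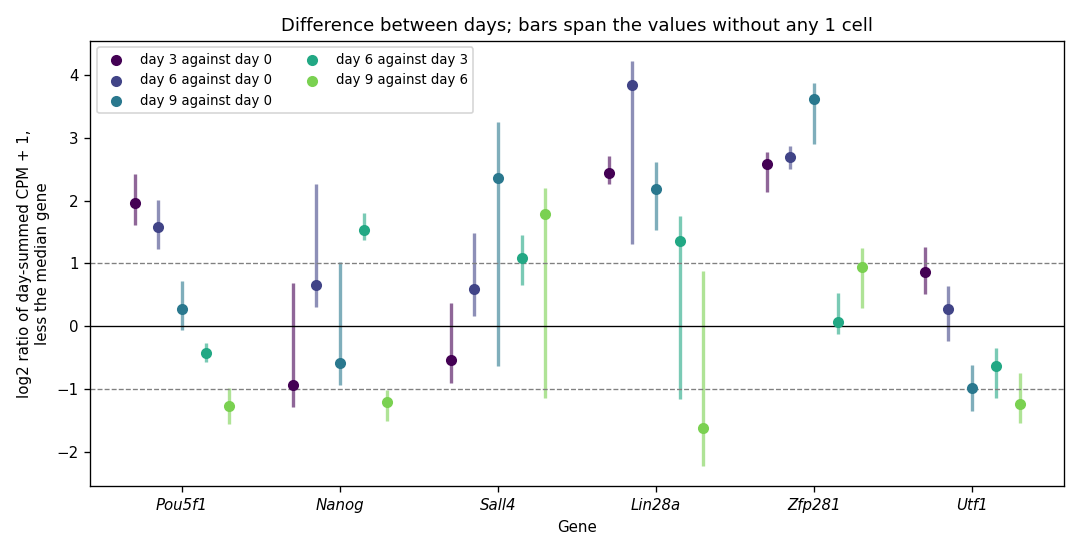
Relative log2 ratio of each core gene in 5 comparisons of days, with points for the value over all cells and bars spanning the values without any 1 cell. Dashed lines mark a 2-fold difference. Pou5f1, Lin28a and Zfp281 stay past 2-fold at days 3 and 6 against day 0, while the bars of Sall4 at day 9 and of Lin28a between later days cross 0.

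Counted together, 3 of the 6 genes were at least 2-fold higher at day 3 than at day 0, and 0 were 2-fold lower. These were Pou5f1, Lin28a and Zfp281, and among 14758 genes measured in that comparison 20.7% were as far higher and 23.5% as far lower. At day 6 against day 0 the same 3 genes were higher and 0 lower, beside 25.4% and 23.1% of 15117 genes. At day 9 against day 0, Sall4, Lin28a and Zfp281 were higher and 0 lower, beside 25.2% and 23.8% of 15512 genes. At day 6 against day 3, Nanog, Sall4 and Lin28a were higher and 0 lower, beside 19.1% and 16% of 15261 genes. At day 9 against day 6, Sall4 was higher, and Pou5f1, Nanog, Lin28a and Utf1 were lower, beside 21.2% and 20% of 16070 genes. Several of these places were set by 1 cell, as given above: Sall4 at day 9 by day 9 cell 3 (-0.63 and -1.14 without it), Lin28a between later days by day 6 cell 4 (-1.15 and 0.87 without it), and Sall4 at day 6 against day 3 by the same cell (0.66 without it), a place that 6 of 12 alternatives also took away. Pou5f1 and Utf1 at day 9 against day 6 were at -0.98 and -0.94 without day 9 cell 2. The counts against day 0 share the same cells and are not independent of each other.

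In none of the 5 comparisons did the cells of a core gene on the 2 days fall into ranges that did not overlap, with 0 higher and 0 lower in each. Of all measured genes, 1.8% were higher and 0.413% lower without overlap at day 3 against day 0. The shares were 1.26% and 0.192% at day 6, and 2.11% and 0.193% at day 9 against day 0. They were 0.754% and 0.315% at day 6 against day 3, and 0.958% and 0.224% at day 9 against day 6. In order of day sums from the lowest, Nanog stood at days 3, 0, 9 and 6, Sall4 at days 3, 0, 6 and 9, Lin28a at days 0, 3, 9 and 6, and Utf1 at days 9, 0, 6 and 3, and no neighbours in these orders lay apart.

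With CT010467.1 left out of the totals, 1 core gene, Pou5f1, was higher without overlap at day 3 against day 0 and 0 were lower, beside 2.83% and 0.339% of genes. On that scale 1 core gene, Zfp281, was higher and 0 were lower at day 9 against day 0, beside 2.34% and 0.193% of genes, with 5.70 CPM in its lowest day 9 cell and 3.41 CPM in its highest day 0 cell. The counts were 0 and 0 in the other comparisons, beside 0.88% and 0.298% of genes at day 6 against day 0, 0.295% and 1.15% at day 6 against day 3, and 1.16% and 0.205% at day 9 against day 6.

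Across cells, Pou5f1 and Utf1 went together most closely. Their Spearman correlation over the 24 cells was 0.75, with Pearson's r of 0.76 on log2(CPM + 1). Within days it was 0.54 over the 6 day 0 cells, 0.82 over the 7 day 3 cells and 0.60 over the 6 day 6 cells. Nanog and Sall4 had 0.57 over all cells, with 0.77, 0.32 and 0.54 within days 0, 3 and 6. The other pairs lay between -0.04 and 0.49, and the lowest was Nanog with Utf1, which had -0.71 within day 0 and 0.83 within day 6. Both genes of a pair share the day of the cell and the library total with its share of CT010467.1, so these values are a description with no p-value.

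**Figure D3:**
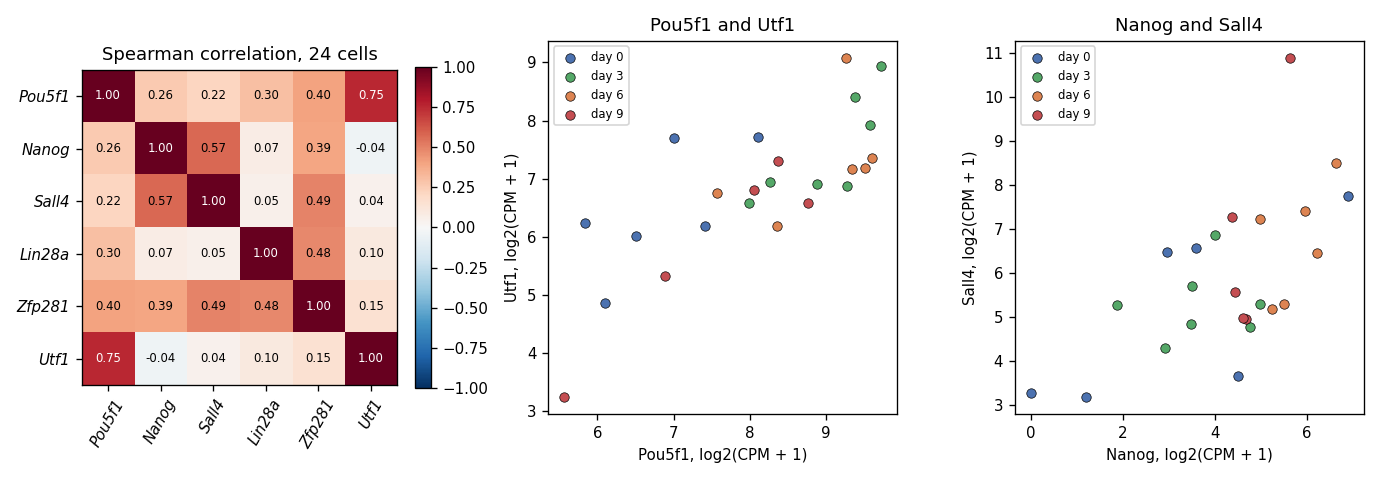
Left, Spearman correlation of each pair of core genes over the 24 cells. Middle and right, Pou5f1 against Utf1 and Nanog against Sall4 as log2(CPM + 1) with 1 point a cell coloured by day. The pair Pou5f1 and Utf1 has the highest value at 0.75, and day 9 cell 3 stands at the top of the Nanog and Sall4 plot.

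The genes whose pattern over the 24 cells was most like each core gene were taken by Spearman correlation among 5332 genes with at least 20 CPM on some day and reads in at least 12 cells. For Pou5f1 these were Eno1, a glycolytic enolase, at 0.92, Ldha, a lactate dehydrogenase subunit, at 0.89 and Eif5a, a translation factor, at 0.89. Eno1 had 755, 4537, 4135 and 1908 CPM at days 0, 3, 6 and 9. For Nanog they were the kinase gene Map2k4 at 0.83, Impact, a regulator of translation, at 0.83 and Farsa, a tRNA synthetase subunit, at 0.80. Sall4 was closest to Khdc4 at 0.79, the kinase gene Tlk2 at 0.79 and Arpc2, an actin-nucleating complex subunit, at 0.78. Lin28a was closest to Pla2g12a at 0.79, Isoc1 at 0.78 and Bod1 at 0.77. Zfp281 was closest to Cers5, a ceramide synthase, at 0.90, Txnl1 at 0.88 and Fbxo28 at 0.88. Cers5 had 0.923, 18.4, 48.2 and 33.2 CPM at days 0, 3, 6 and 9, near absent at day 0 like Zfp281 itself. Utf1 was closest to Atp5b, a subunit of ATP synthase, at 0.80, to Thoc6 at 0.79 and to Pou5f1 at 0.75. Among all candidates, the upper 2.5% began at 0.65 for Pou5f1, 0.56 for Nanog, 0.59 for Sall4, 0.60 for Lin28a, 0.73 for Zfp281 and 0.53 for Utf1.

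Of 20 other genes of the core network, 18 were measured, and they did not share 1 direction. At day 3 against day 0, 5 of them were at least 2-fold higher and 6 lower, with a median relative log2 ratio of 0.21, where the median of all genes is 0 by construction. At day 6 the counts were 5 and 4 with a median of -0.09, and at day 9 they were 4 and 5 with -0.58. Over the 5 alternatives run for lists (TMM, DESeq2 size factors, both pseudocounts and day 0 cells 5 and 6 only) the medians ranged from 0.18 to 0.42, from -0.33 to 0.26 and from -0.96 to -0.08, so the sign at day 6 depended on the setting. Of all genes, 20.7% were as far higher and 23.5% as far lower at day 3, 25.4% and 23.1% at day 6, and 25.2% and 23.8% at day 9, and these counts lie near those shares. Rif1, a telomere and replication timing factor, had 160.1 CPM at day 0 and 41.5 CPM at day 3. Day 0 cell 4 held 75.9% of the summed Rif1 cell values of its day, and the medians over cells were 28.7 and 38.5 CPM. Phc1, a Polycomb subunit, had 27.7 CPM at day 0 and 168 CPM at day 6. Dppa5a, an RNA-binding protein typical of mESCs, had 10409 CPM at day 0 and 6000 CPM at day 9, and Dppa2 had 4.42 and 53.9 CPM. Day 9 cell 3 held 93.8% of the summed Dppa2 cell values of its day, and the Dppa2 medians over cells were 4.99 and 0.986 CPM. For Rif1 and Dppa2 the direction thus turned with the median. Fgf4, a growth factor and target of OCT4 and SOX2, had 34.7 CPM at day 6 and 2.85 CPM at day 9.

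Sox2, the partner of OCT4 at the composite motif, had 0 reads in all 24 cells, where 3 reads over a day would stand for 0.0439 to 0.0822 CPM. It lies at chr3:34649995-34652461 on mm10 and overlaps Sox2ot, which had 288, 301, 520 and 369 reads over the 4 days. How reads in the overlap were assigned is not given in the sources used here, so a count of 0 cannot be told apart from reads left unassigned, and this was not tested.

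By day sums, the naive pluripotency factors, which act downstream of LIF or beside it, were lower at day 3 than at day 0 in 6 of 10 cases by at least 2-fold. At day 3, 0 of 10 were at least 2-fold higher, beside 20.7% higher and 23.5% lower of all genes, with a median relative log2 ratio of -1.27. At day 6 the counts were 1 and 5 with a median of -1.08, beside 25.4% and 23.1% of all genes. At day 9, with 9 measured, they were 0 and 2 with -0.59, beside 25.2% and 23.8%, so that the number lower was near the share of all genes. Klf2, a Krüppel-like factor of naive cells, had 100.015 CPM at day 0 and 16.0, 10.2 and 10.2 CPM at days 3, 6 and 9. Esrrb, an orphan nuclear receptor, had 111 CPM at day 0 and 29.9, 52.8 and 29.8 CPM. The T-box factor gene Tbx3 had 3.76 CPM at day 0 and 8.51 CPM at day 3, and Klf5 had 61.2 and 73.5 CPM. Cell ranges overlapped between days for every naive factor. Of the 6 lower at day 3, 1 cell held most of the summed day 0 cell values for Dppa3, Nr5a2 and Klf4. The shares were 99.8% in cell 3, 83.2% in cell 6 and 79.2% in cell 4. Their medians over cells at days 0 and 3 were 0 and 0, 0.835 and 1.11, and 10.4 and 8.40 CPM. For Klf2, Esrrb and Zfp42 the medians were 97.4 and 7.34, 90.9 and 24.3, and 92.7 and 41.5 CPM. With day 0 cells 5 and 6 only, the list median was -1.49 at day 3, and with a pseudocount of 10 CPM the list medians were -0.61, -0.46 and -0.14.

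**Figure D4:**
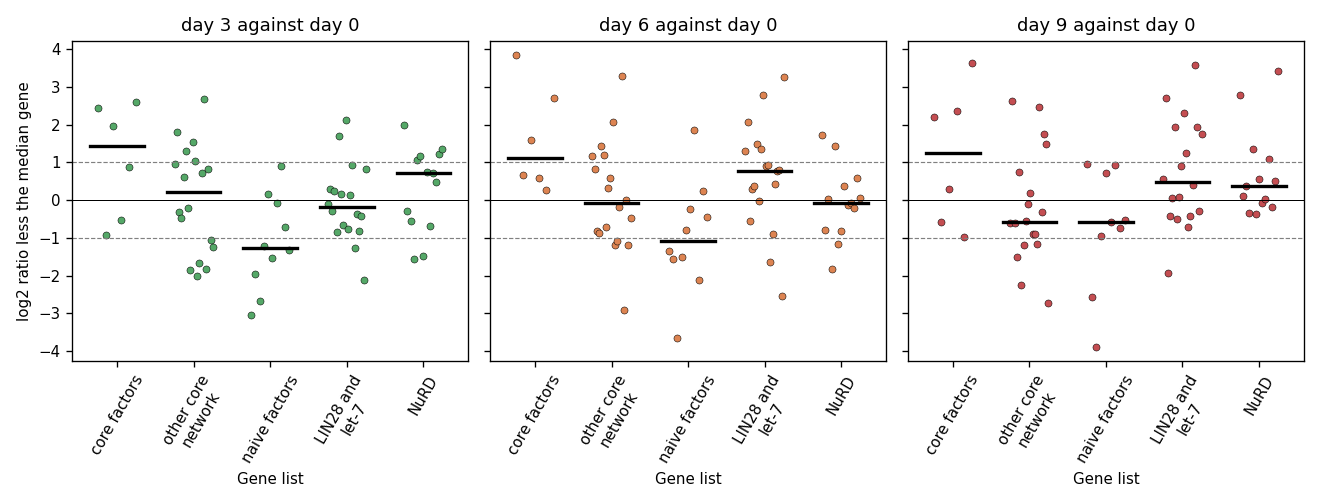
Relative log2 ratio of each measured gene of 5 lists at days 3, 6 and 9 against day 0, with points for genes, a bar for the median of a list and dashed lines at 2-fold. Over all cells, the median of the core genes is above 0 at each day and that of the naive factors below 0. Sall4 at day 9 is at 2.36, but at -0.63 without day 9 cell 3, and the core median was not recomputed without that cell.

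The LIN28 and let-7 list, 18 genes of let-7 processing and let-7 targets, had 2 genes at least 2-fold higher and 2 lower at day 3 against day 0, 6 and 2 at day 6, and 7 and 1 at day 9. The shares of all genes were 20.7% and 23.5%, 25.4% and 23.1%, and 25.2% and 23.8%. The medians were -0.19, 0.78 and 0.48, and over the same 5 alternatives they ran from -0.51 to -0.06, from 0.33 to 0.67 and from 0.22 to 0.83. Hmga1, a chromatin protein on the let-7 target list, had 11.7, 58.5, 123 and 37.7 CPM over the 4 days, and its day 3 and day 6 cells lay wholly above those of day 0. Tut4, the uridylyltransferase that LIN28A recruits to let-7 precursors, had 56.2 CPM at day 0, 13.1 CPM at day 3 and 12.7 CPM at day 6. Day 0 cell 4 held 86.7% of the summed Tut4 cell values of its day. The Tut4 medians over cells were 4.44, 7.53 and 12.8 CPM, the opposite direction. Tut7, a relative of Tut4, had 0.967 CPM at day 0 and 25.3 CPM at day 6. Mycn, a let-7 target, had 2.20 CPM at day 0 and 61.0 CPM at day 9, and Trim71, a let-7 target and RNA-binding protein, had 8.52 and 58.1 CPM. Day 9 cell 3 held 83.3% of the summed Mycn cell values of its day, and the Mycn medians over cells were 0.114 and 10.8 CPM.

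Of the 13 subunits of NuRD, the deacetylase and remodelling complex that both SALL4 and ZFP281 can recruit, 5 were at least 2-fold higher and 2 lower at day 3 against day 0, 2 and 2 at day 6, and 4 and 0 at day 9. Of all genes, 20.7% and 23.5%, 25.4% and 23.1%, and 25.2% and 23.8% were as far apart. The medians were 0.72, -0.08 and 0.38, and over the same 5 alternatives they ran from 0.44 to 0.76, from -0.29 to 0.14 and from 0.01 to 0.95. Rbbp7, a histone-binding subunit, had 26.6 CPM at day 0, 73.8 CPM at day 3 and 482 CPM at day 9. Hdac2, a deacetylase, had 43.4 CPM at day 0, 106 CPM at day 3 and 26.9 CPM at day 6. The Hdac2 medians over cells were 20.9, 74.2 and 34.2 CPM, so day 6 was not below day 0 by the median.

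Markers of other lineages stood beside the day 9 values. The 10 trophoblast markers, which include the simple-epithelium keratins Krt8 and Krt18, had reads from 6 of 10 genes at day 0 with Cdx2, Elf5, Hand1 and Ascl2 at 0, from 9 at day 3, 8 at day 6 and 10 at day 9. Their cell sums ran from 0 to 163 CPM at day 0, 24.3 to 217 CPM at day 3, 13.2 to 212 CPM at day 6 and 332 to 2688 CPM at day 9, where every cell was above all earlier cells. Krt8 had 13.0, 18.8, 23.0 and 609.8 CPM over the 4 days and Krt18 had 7.60, 52.6, 101 and 921 CPM. The other markers were far lower at day 9, with 2 reads of Elf5 and 27 reads of Cdx2. Hand1, Ascl2, Tfap2c, Gata3 and Tead4 had 22.9, 14.7, 11.4, 11.3 and 9.81 CPM at day 9. Eomes had 10.4 CPM at day 6 and 3.45 CPM at day 9. The 10 primitive endoderm markers had reads from 10 genes at days 0 and 9 and from 8 at days 3 and 6, and summed to 3.10 to 137 CPM, 0.461 to 75.8 CPM, 5.499 to 107 CPM and 201 to 905 CPM. Neuroectoderm markers were at 0 for all 8 genes at day 0, and mesoderm markers summed to at most 88.5 CPM in any cell. All 5 day 9 cells with these sums still had Pou5f1 at 46.2 CPM or more and Nanog at 19.7 CPM or more. The part of these cell states in the core gene values was not tested.

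**Figure D5:**
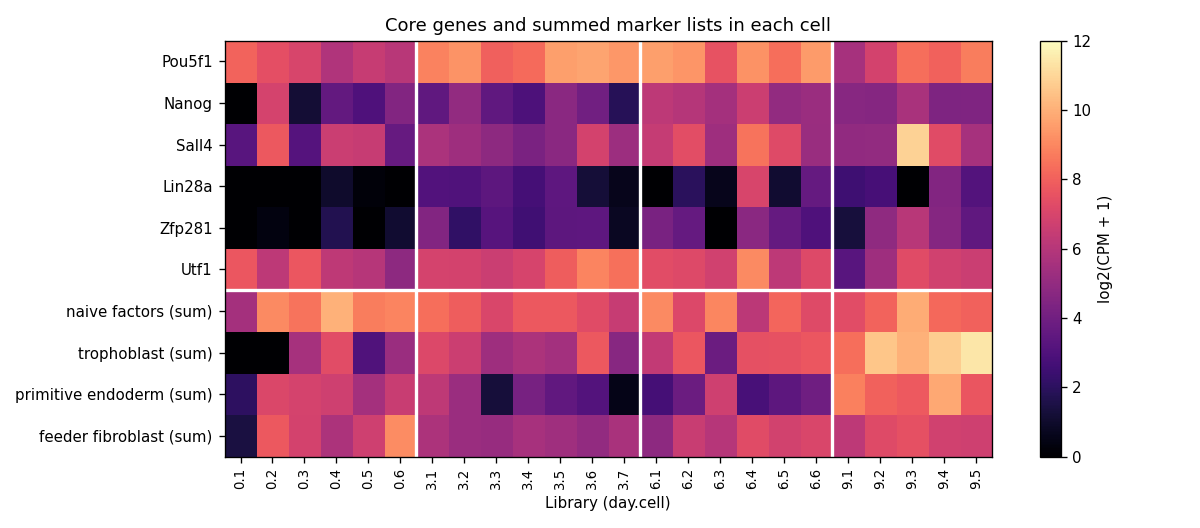
Level of the core genes (upper rows) and summed level of 4 marker lists (lower rows) in each of the 24 libraries, as log2(CPM + 1), ordered by day and cell number. The trophoblast and primitive endoderm sums are highest in the day 9 cells, while Pou5f1 is highest in day 3 and day 6 cells.

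Across the 24 cells, Pou5f1 level had a Spearman correlation of 0.68 with the number of gene reads of the library and -0.58 with the primitive endoderm sum, which Utf1 also had at -0.58. In that sum Lama1 was by far the highest gene at day 9. Zfp281 had 0.74 with the trophoblast sum and Lin28a 0.49, a sum in which the keratins Krt8 and Krt18 were by far the highest genes at day 9. Sall4 had -0.47 with the share of CT010467.1. Depth and these sums also differ between days, their part in the core gene values was not tested, and no p-value is given for them.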

How the data were processed

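RNA of 24 single mESCs was analysed from the deposited raw counts, whole numbers of reads per gene in 1 table a cell, which the authors made with no normalization. The builds mm10 and hg38 are named in the submitters' processing notes, beside Bowtie2 2.2.9, Bismark and Trim Galore 0.6.7. The RNA aligner, counter, annotation and strand setting were not given in the sources used here. Groups are the days in the sample titles. The 5 closing summary lines of each table were left out of totals, and 55141 of 55401 gene IDs were matched to a name. No cell was removed and no doublet caller was run. The 18 K562 libraries and the DNA libraries were not analysed here.

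Reads were summed by day and scaled to CPM, with exact Poisson intervals for the levels, and ratios had conditional binomial intervals, also exact. Without molecular identifiers, reads are not independent molecules. No test was made, since a day is 1 sample, and cells within a day were described by range, median and coefficient of variation. The ratio was tested on simulated data with known changes. The core genes, the 12 gene lists, the alternatives and the naming rule were chosen with earlier results of these data known. Beside the 6 core genes, the rule names 3 genes most like each over cells and up to 4 genes of each list by size of difference, of which the text gives examples. The relatives, overlapping genes, keratins, other lineage markers, Nr5a2 and Tbx3 named besides were chosen after their values were seen. Alternatives were TMM (edgeR 4.0.16) and DESeq2 1.42.0 size factors, both used for scaling only, totals without mitochondrially encoded genes or CT010467.1, mean or median over cells, a pseudocount of 0.1 or 10 CPM, a minimum of 1 or 200 reads, no median subtraction, day 0 cells under 10% mitochondrially encoded reads and leaving out each cell. Lists were recomputed under 5 of these. Centring on genes of at least 20 CPM was added after seeing the data. The software was R 4.3.3 and Python 3.11.15, with scipy 1.17.1, pandas 2.3.3, numpy 2.4.6 and matplotlib 3.10.9.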

Additional observations from a re-analysis of the deposited data

Results flagged for a closer look

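In 8 of 24 combinations of core gene and day, the highest cell stood apart from the others by more of the day's range than Dixon's 95% limit. Chance exceeds that limit, at either end of a group, in about 1 of 20 groups only where values are independent and normally distributed. For the highest cell alone that rate is lower. The CPM of single cells were not shown to be so, and the limit was used to flag cells and not as a test. The limits were 0.71 of the range for 5 cells, 0.625 for 6 and 0.568 for 7. Day 6 cell 4 and day 9 cell 3 each stood apart in 2 genes, and cells of 1 day are not replicates.

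Nanog in day 0 cell 2 had 118 CPM, a gap of 0.816 of the range to the next cell at 21.7 CPM. Nanog in day 9 cell 3 had 48.8 CPM, a gap of 0.835 to the next at 24.5 CPM. Sall4 in the same cell, day 9 cell 3, had 1909 CPM, a gap of 0.934 to the next at 155 CPM. Sall4 in day 3 cell 6 had 116 CPM, a gap of 0.661 to the next at 51.6 CPM. Lin28a in day 0 cell 4 had 1.03 CPM from 6 reads, a gap of 0.844 to the next at 0.161 CPM. Lin28a in day 6 cell 4 had 126 CPM, a gap of 0.911 to the next at 11.2 CPM. Utf1 in the same cell, day 6 cell 4, had 541 CPM, a gap of 0.808 to the next at 162 CPM. Zfp281 in day 3 cell 1 had 22.2 CPM, a gap of 0.579 to the next at 9.73 CPM.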

How the results depend on the processing

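Counts of core genes past 2-fold moved by more than 1.5 times as follows. At day 3 against day 0 the number lower was 1 in place of 0 with a pseudocount of 0.1 CPM, and the number higher 1 in place of 3 with a pseudocount of 10 CPM. At day 6 against day 0 the number higher was 5 in place of 3 with a minimum of 1 read, with no median subtraction and with day 0 cells under 10% mitochondrially encoded reads. At day 9 against day 0 the number lower was 1 in place of 0 (Utf1) with TMM, DESeq2 size factors, totals without mitochondrially encoded genes, totals without CT010467.1, the mean over cells, a pseudocount of 0.1 CPM, a minimum of 200 reads and centring on genes of at least 20 CPM. At day 6 against day 3 the number lower was 1 in place of 0 with the median over cells. At day 9 against day 6 the number lower was 2 in place of 4 with a pseudocount of 10 CPM, and the number higher 2 in place of 1 with a minimum of 1 or 200 reads and with no median subtraction. Smaller moves were from 3 higher to 4 at day 3 against day 0 (Utf1) with a minimum of 200 reads, centring on genes of at least 20 CPM and day 0 cells under 10% mitochondrially encoded reads. At day 6 against day 3 the number higher was 2 in place of 3 with TMM, DESeq2 size factors, totals without CT010467.1, a pseudocount of 0.1 CPM, a minimum of 200 reads and centring on genes of at least 20 CPM (Sall4 lost), and with the median over cells and a pseudocount of 10 CPM (Lin28a lost). At day 6 against day 0 it was 4 with the median over cells and 2 with a pseudocount of 10 CPM, and at day 9 against day 0 it was 2 with both. At day 9 against day 6 the number lower was 3 in place of 4 with the median over cells. Core genes without overlap of cells were 1 in place of 0 at days 3 and 9 against day 0 with totals without CT010467.1, and at day 6 against day 3 with totals without mitochondrially encoded genes.

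With the median over cells, Sall4 reversed to -0.75 at day 9 against day 0 and to -1.41 against day 6, and Lin28a to -1.51 at day 6 against day 3 and to 1.07 at day 9 against day 6. Leaving out 1 cell gave the same reversals, for Sall4 to -0.63 and -1.14 without day 9 cell 3, and for Lin28a to -1.15 and 0.87 without day 6 cell 4. Here the construction shows the cause, a sum carried by 1 cell. The highest values without 1 cell were 3.25 and 2.20 for these Sall4 ratios and 1.76 for Lin28a at day 6 against day 3, and the lowest for Lin28a at day 9 against day 6 was -2.22. Without each cell in turn, the number of core genes past 2-fold higher ran from 3 to 4 for day 3 against day 0, from 3 to 5 for day 6 and from 2 to 4 for day 9. It ran from 1 to 3 for day 6 against day 3 and from 0 to 2 for day 9 against day 6. The number lower was 0 to 1, 0 to 0, 0 to 1, 0 to 2 and 2 to 5 in the same order. The number without overlap and higher was 0 to 2, 0 to 2, 0 to 1, 0 to 1 and 0 to 0, and lower 0 to 1 at day 9 against day 6 and 0 to 0 elsewhere. No paired analysis was possible because cells are numbered within a day only and no test was made. Other causes were not tested. Lin28a and Zfp281 at day 0 rest on 7 and 25 reads, and the part of depth in this was not tested.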
